A study of Mus musculus with 8 samples.

Results

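Castrate resistant Myc-CaP tumors (Myc-CaP/CR, n = 4) were compared with androgen sensitive Myc-CaP tumors (Myc-CaP/AS, n = 4). The members were taken by the phenotype given for each tumor, and together they make up all 8 tumors of the series. Myc-CaP is a prostate cancer cell line from a mouse that carries a human MYC transgene under a prostate promoter. AS or CR cells were placed in the anterior prostate of male FVB mice that were either intact or had been castrated by surgery beforehand. Each phenotype has 2 primary and 2 metastatic tumors, here called primary and metastatic AS1, AS2, CR1 and CR2, and these numbers were given in order of listing and pair nothing. The labels do not say which host each tumor grew in, so cell line and host cannot be told apart. The age of the mice is not given. Metastases are described as matched to primary tumors, without saying which, so that as few as 2 mice may stand behind each phenotype and p-values over tumors may be too small. The library numbers of the AS and CR tumors come from separate series, so a library batch and the phenotype cannot be told apart for any result.

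Androgens, testosterone and the more potent dihydrotestosterone made from it, keep prostate luminal cells alive and switch on many of their genes. Castration withdraws these hormones and at first shrinks most prostate tumors. Tumors that regrow under castration often restore androgen signaling, for example by making steroids themselves, or rely on other growth pathways, while some lose prostate identity.

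RNA was sequenced from ribosomal RNA-depleted total RNA, and the values are counts of reads per gene. Total counts ranged from 61237285 to 91886163 in the AS tumors and from 20905806 to 76887592 in the CR tumors (exact two-sided permutation test, p = 0.0857, where 4 against 4 tumors allow no p below 0.0286). All levels below are normalized counts, that is, counts corrected for each library's effective size (total count times normalization factor) and brought to the average of the 8 sizes. Where 4 values are given for a phenotype, they are in the order primary 1, metastatic 1, primary 2, metastatic 2. Log2 fold changes are CR over AS with their standard error (SE), from edgeR's quasi-likelihood test with tumor type (primary or metastatic) as a covariate, and a gene is called when its Benjamini-Hochberg adjusted p over all genes tested is below 0.05.

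The library of primary CR1 stood apart from the other 3 CR libraries. Lars2, the gene of the mitochondrial leucyl-tRNA synthetase, took 9.54, 8.53 and 9.39% of the counts in metastatic CR1, primary CR2 and metastatic CR2. It took 0.140% in primary CR1 and 0.0259 to 0.0998% in the AS tumors. Ribosomal RNA genes took 0.571 to 0.753% in those 3 CR libraries, 0.0399% in primary CR1 and 0.0262 to 0.0788% in the AS tumors. Signal recognition particle (SRP) RNA moved the other way, with 1.48 to 2.41% in the 3 CR libraries, 12.6% in primary CR1 and 7.21 to 10.8% in the AS tumors. The mitochondrial genome took 4.85% in primary CR1, 12.9 to 28.3% in the other CR tumors and 14.4 to 18.9% in the AS tumors. For Lars2, ribosomal RNA and SRP RNA, primary CR1 therefore lay within or nearer to the AS range than the other CR tumors, and for the mitochondrial genome it was the lowest of all 8.

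**Figure D1:**
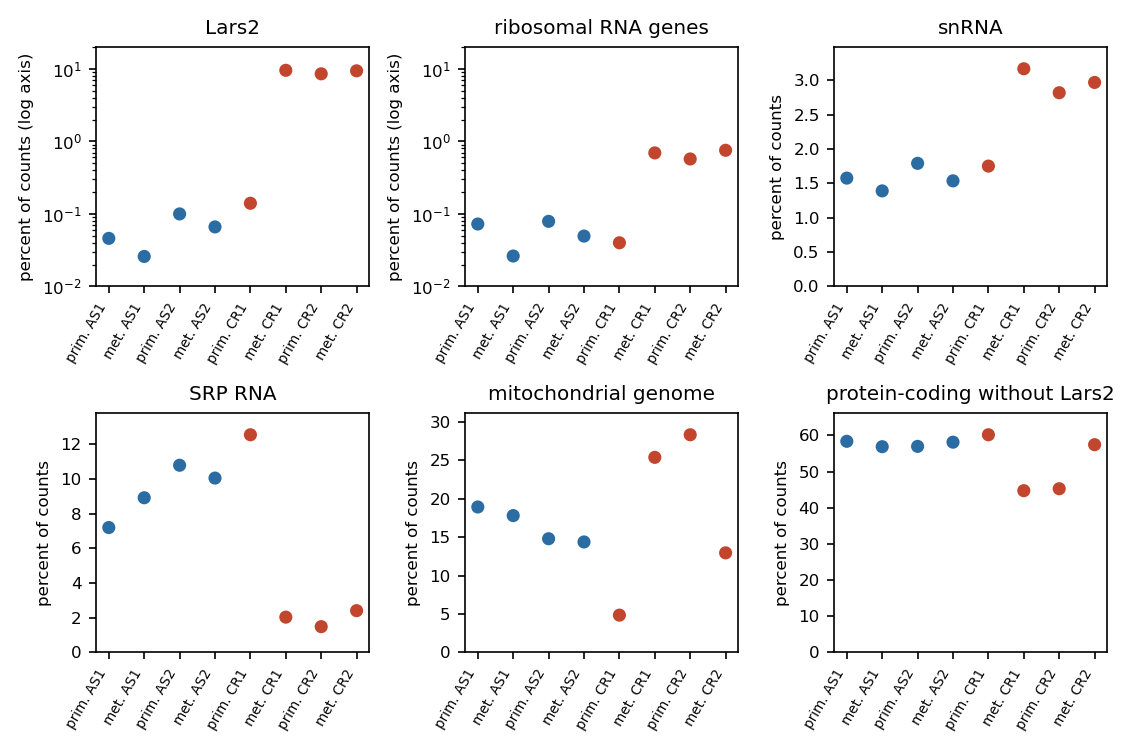
Percent of all counts taken by 6 groups of genes (y axes, logarithmic for Lars2 and ribosomal RNA genes) in each of the 8 tumors (x axes), 1 point a tumor, AS in blue and CR in red. Primary CR1 sits at 0.140% for Lars2 and 12.6% for SRP RNA, near the AS tumors, while the other 3 CR tumors sit at 8.53 to 9.54% and 1.48 to 2.41%.

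Of 17104 genes tested, 2081 were called between the phenotypes (12.2%), 1053 higher and 1028 lower in the CR tumors. Among 13666 protein-coding genes, 1669 were called (12.2%), 717 higher (5.25%) and 952 lower (6.97%). Of these, 382 were higher and 486 lower by at least 2-fold. Among 3438 noncoding genes, 412 were called (12%), with 336 higher and 76 lower. The number of calls depended on the tumors entered: without primary CR1 it was 4133, with the other tumors left out in turn 481 to 1116, and with tumors summed per mouse in the 4 possible matchings 164 to 389. Of the 717 higher and 952 lower genes, 690 and 923 were also called in the same direction without primary CR1. In every one of the 4 matchings, 49 of the higher and 41 of the lower protein-coding genes were called. A term for the 3 libraries with a high Lars2 share was added after the data were seen. With that term and the tumor type covariate, the log2 fold change sets primary CR1 alone against the level fitted for primary AS tumors. Only its size is given for genes and lists. Among genes called without primary CR1, that tumor was above all 4 AS tumors in 68.8% of the 1184 higher protein-coding genes. It was below all 4 in 54.2% of the 2013 lower ones. Over all protein-coding genes tested, these shares were 31.4 and 32.5%. The same AS tumors entered the calls and the comparison, so called genes are in part chosen by their AS values. The shares are thus no independent check.

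Named here are protein-coding genes past the test whose CR tumors all lay above or all below the AS tumors, by log2 fold change, so their lack of overlap comes from the choice. The genes with the largest increase were at 283 or below in every AS tumor, apart from Lars2, and most exceeded 400 in every CR tumor, with 9330159F19Rik (from 35.3), Bbox1 (from 102), Npnt (from 311) and Mtap2 (from 375) below that in some. Mapk13, the stress kinase p38 delta, was at 20.8, 12, 11 and 9.30 in the AS tumors and at 1074, 1235, 1276 and 889 in the CR tumors (log2 fold change 6.42, SE 0.29, adjusted p = 2.56e-05). The CR tumors lay within a narrow range. Calca, which encodes calcitonin and the neuropeptide CGRP, was at 283, 137, 239 and 191 in the AS tumors and at 35200, 37480, 13670 and 1577 in the CR tumors (6.72, SE 0.92, adjusted p = 0.00588). Metastatic CR2 was far below the other CR tumors for Calca, and still above every AS tumor. Pof1b, an actin-binding epithelial protein, was at 35.0 to 172 in the AS and 7819 to 13950 in the CR tumors (6.62, SE 0.53, adjusted p = 0.000671). Cxcl15, the chemokine lungkine, was at 20.8 to 136 against 3283 to 7538 (6.09, SE 0.61). Sema3c, a secreted guidance semaphorin, was at 30.3, 30.1, 15.2 and 29.1 in the AS tumors and 1175, 1836, 1002 and 1190 in the CR tumors (5.63, SE 0.28, adjusted p = 4.23e-05). Abcb5, a membrane efflux transporter, was at 4.51 to 27.9 against 482 to 1255 (5.86, SE 0.54). Sohlh1, a germ cell transcription factor, was at 28.8 to 65.3 against 950 to 8141 (6.04, SE 0.70). Bbox1, the last enzyme of carnitine synthesis, Npnt, an extracellular matrix ligand of integrins, Mtap2, a microtubule-associated protein of neurons, and 9330159F19Rik rose by 5.57, 5.33, 5.21 and 5.81 on the log2 scale.

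Lars2 had the largest log2 fold change of this group (7.04, SE 1.26, adjusted p = 0.0134), and 3 of the 4 CR tumors were far above the rest. It was at 26620, 15050, 57830 and 35280 in the AS tumors, 77390 in primary CR1 and 6720000, 6248000 and 4874000 in the other CR tumors. With the term for the 3 libraries, which leaves primary CR1 against the fitted primary AS level, its log2 fold change was 0.99. Lars2 is described here with the ribosomal RNA genes, which moved in the same 3 libraries, and not with the pathways below.

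The genes with the largest decrease were at 165 or below in every CR tumor and mostly above 200 in the AS tumors, with Cyp2t4 (from 9.30), Ighg1 (from 45.4), Cela2a (from 61.6) and Mybpc1 (from 110) lower in some. AC132253.3, named Scgb2a2 in GENCODE M21 and a member of the secretoglobin family of small secreted proteins, fell from 7920, 2841, 11580 and 2838 in the AS tumors to 23, 5.21, 8.82 and 0 in the CR tumors (log2 fold change -9.21, SE 0.41, adjusted p = 2.56e-05). Cela2a, a pancreatic-type elastase, was at 366, 226, 187 and 61.6 in the AS tumors and had no count in any CR tumor. Against a floor of 3 counts over the 4 CR libraries, Cela2a was at least 190-fold lower. Ifitm1, an interferon-induced membrane protein that blocks virus entry, fell from 2860, 5422, 3359 and 3112 to 64.0, 98.9, 47.0 and 32.3 (-5.87, SE 0.36, adjusted p = 0.000221). Foxj1, the master regulator of motile cilia, was at 573 to 1704 against 8.82 to 54.6 (-5.11, SE 0.46). Gsta1, a glutathione transferase, was at 1777 to 6568 against 5.88 to 165 (-6.52, SE 0.73). How reads were placed among or dropped from its near-identical family members was not tested. Lcn12, a lipocalin that binds retinoids, was at 650 to 801 against 5.88 to 37.3 (-4.93, SE 0.41). Hapln1, which links hyaluronan to proteoglycans, Mybpc1, a muscle myosin-binding protein, and Cyp2t4, a cytochrome P450, had log2 fold changes of -4.93, -5.99 and -5.15. For Cyp2t4 the adjusted p was 0.0351, and it was 0.0614 without primary CR1. Ighg1, the constant region of IgG1, was at 45.4 to 1999 in the AS tumors and 4.97 to 33.8 in the CR tumors, with an adjusted p of 0.0118.

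**Figure D2:**
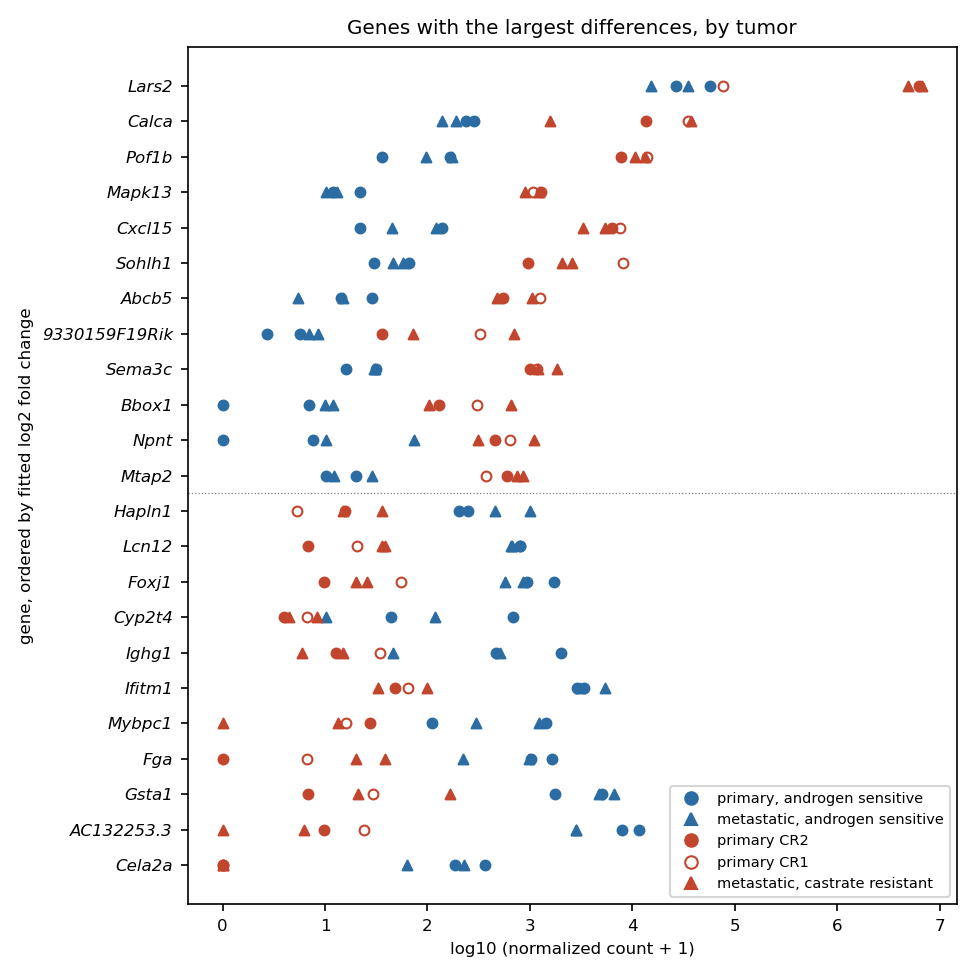
Log10 (normalized count + 1) (x axis) of the 23 protein-coding genes named for their log2 fold changes (y axis), 1 symbol a tumor: AS in blue, CR in red, circles for primary and triangles for metastatic tumors, primary CR1 as an open circle. The genes were chosen without overlap between phenotypes, and for Lars2 primary CR1 (77390) lies beside the AS tumors and not with the other CR tumors (4874000 to 6720000).

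Fibrinogen genes were among the most changed secreted products. Fgb, the fibrinogen beta chain, was at 596900, 465000, 561300 and 220100 in the AS tumors and 5209, 6079, 116700 and 20000 in the CR tumors (-3.98, SE 0.91, adjusted p = 0.0276). Primary CR2 held the most among the CR tumors and was still below the lowest AS tumor. Fga, the alpha chain, fell from 1659, 986, 1034 and 224 to 5.75, 19.1, 0 and 37.3 (-6.06, SE 0.91, adjusted p = 0.00788). Liver cells are the usual source of fibrinogen, and Alb, albumin, was at 11 to 59.4 in the AS and 0 to 189 in the CR tumors (1.38, adjusted p = 0.411, and 1.98 with adjusted p = 0.0260 without primary CR1), while Apoa1 stayed at or below 13.5 in all 8 tumors. Of 5 liver markers tested, Fgb and Ttr were called lower and Trf was called higher.

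For the 23 genes named for their fold change, RefSeq promoter windows of 300 bases (GRCm38.p6, 250 bases before and 50 after the start) were searched for AGAACA or TGTTCT, the half-site of the androgen response element, on both strands. A window was found for 21 of the 23 genes, and 5 held a half-site (Lars2, Abcb5, Bbox1, Mybpc1 and Lcn12), where 19.0% of all promoter windows did, and 12.9% of the windows found for tested protein-coding genes. Only 77.9% of those genes had a window, so the shares are not compared. None of the 21 held the full element, the half-site and its mirror image with 3 bases between. The 250 bases before the start are shown for 3 of the 5, to place the letters, with half-sites in capitals: Bbox1 (chr2:110305726-110305975, minus strand), Abcb5 (chr12:118966422-118966671, minus strand) and Lcn12 (chr2:25493912-25494161, minus strand).
Bbox1: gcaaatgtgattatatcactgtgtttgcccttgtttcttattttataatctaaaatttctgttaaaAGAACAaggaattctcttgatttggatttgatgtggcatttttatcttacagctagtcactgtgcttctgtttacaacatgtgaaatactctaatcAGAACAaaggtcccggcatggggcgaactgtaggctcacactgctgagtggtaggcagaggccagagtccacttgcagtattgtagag
Abcb5: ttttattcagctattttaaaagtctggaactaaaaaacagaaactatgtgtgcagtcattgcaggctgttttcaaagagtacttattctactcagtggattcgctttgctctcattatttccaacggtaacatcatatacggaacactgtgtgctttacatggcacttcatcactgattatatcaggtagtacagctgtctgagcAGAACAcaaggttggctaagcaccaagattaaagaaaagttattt
Lcn12: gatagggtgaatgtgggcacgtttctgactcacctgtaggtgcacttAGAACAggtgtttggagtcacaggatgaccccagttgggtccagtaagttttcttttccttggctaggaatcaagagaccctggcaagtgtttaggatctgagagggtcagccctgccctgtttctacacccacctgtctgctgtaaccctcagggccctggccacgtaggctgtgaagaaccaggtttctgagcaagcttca
Bbox1 and Abcb5 were higher and Lcn12 lower in the CR tumors, so windows with these letters occurred in both directions. A match is a description of the sequence and not a binding site.

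Among 29 genes of a list of androgen-regulated genes, 4 were higher and 3 lower, with a median of 0.03, where all protein-coding genes had a median of -0.04. Mme, the membrane peptidase neprilysin, rose from 5921, 8034, 10520 and 4908 to 22650, 33640, 29870 and 26400 (1.95, SE 0.27, adjusted p = 0.00613). Krt19 and Krt8, keratins of simple epithelia, rose by 3.66 and 1.85 on the log2 scale, and Tpd52, a vesicle trafficking protein, by 0.47. Camkk2, a calcium-dependent kinase that activates AMPK, fell from 1227, 955, 985 and 990 to 697, 573, 582 and 519 (-0.81, SE 0.15, adjusted p = 0.0158). Psca, a surface antigen of prostate cells, had a log2 fold change of -2.03 (adjusted p = 0.0430), with overlap between the phenotypes. Fkbp5, a glucocorticoid and androgen induced chaperone, was at 24320 to 29000 in the AS and 17340 to 32760 in the CR tumors (0.00, SE 0.19, adjusted p = 0.999). Members of the list thus moved in both directions, and the shares called, 4 and 3 of 29, stood beside 5.25 and 6.97% of all protein-coding genes.

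Markers of prostate epithelium were mixed in both phenotypes. Of 19 luminal genes 15 passed the filter on low counts, with a summed level of 39850 to 67460 in the AS and 45130 to 87200 in the CR tumors, and of 14 basal genes 10 passed, with 48190 to 59040 and 34370 to 51570. Some defining markers were scarce. Tmprss2, a serine protease of luminal cells, stayed at or below 13.3 in all 8 tumors and Pbsn, probasin, at or below 32.2, and neither was tested. Krt5, a basal keratin, stayed at or below 3.59. Krt18, the usual partner of Krt8, was at 5.88 to 24.8, while Krt8 was at 2159 to 9946 in the AS and 15670 to 42150 in the CR tumors. Per the study's methods, reads that matched more than a single location were not kept, and the part of this in the Krt18 values was not tested. Ehf, an epithelial ETS transcription factor, fell from 5924, 6367, 8877 and 6001 to 985, 269, 185 and 380 (-3.94, SE 0.48, adjusted p = 0.00418), with primary CR1 highest of the CR tumors. The counts of called genes here are to be read beside the 5.25% of all protein-coding genes called higher and 6.97% called lower. Of 15 luminal genes tested, 2 were called higher and 2 lower. Of 10 basal genes tested, Trp63, the p63 transcription factor (197 to 237 against 14.7 to 96.9), and Lamb3, a laminin chain (126 to 378 against 5.88 to 64.0), were called lower, Lamb3 with a log2 fold change of -2.58. Only 6 of 19 neuroendocrine genes passed the filter on low counts, and none of the 6 was called. Chga, chromogranin A, was at 0.946 to 63.1 in the AS and 7.91 to 64.7 in the CR tumors. Of 19 genes of epithelial to mesenchymal transition, Fn1, fibronectin, was called higher (1.17, SE 0.28, adjusted p = 0.0319).

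Genes of the mitochondrial respiratory chain were lower in the CR tumors. The chain consists of complexes that pass electrons from NADH and succinate to oxygen, and of the ATP synthase. Of 38 nuclear genes tested, 20 were called lower and 0 higher, where 6.97% of protein-coding genes were called lower. The median log2 fold change was -0.68, and for 24 of the 38 all 4 CR tumors lay below all AS tumors, where this held for 10.9% of all protein-coding genes tested. Atp5o, a stalk subunit of the ATP synthase, fell from 10690, 8126, 8759 and 7642 to 4394, 2641, 2837 and 2461 (-1.53, SE 0.18, adjusted p = 0.00358). Ndufb10, an accessory subunit of complex I, fell from 2888, 2524, 2929 and 3058 to 1561, 1161, 1434 and 1053 (-1.15, SE 0.14, adjusted p = 0.00439). In both genes every CR tumor was below every AS tumor, and primary CR1 was the nearest to the AS tumors. All complexes had members that fell: Ndufv1 of complex I (-1.38), Sdhd of complex II (-1.30), Cyc1 of complex III (-1.16), Cox5a of complex IV (-1.21) and Atp5d of the ATP synthase (-1.13). Cox6c of complex IV was the single member with a value above 0 (0.13, SE 0.20). The summed level of the list was 385900 to 427300 in the AS and 201400 to 332300 in the CR tumors. The median was -0.56 in primary tumors alone, -0.90 in metastatic tumors alone and -0.87 without primary CR1, when 27 members were called. Leaving out any other tumor left 6 to 12 members called. With tumors summed per mouse it was -0.62 to -0.64 over the 4 matchings, with 0 to 2 members called. With the term for the 3 libraries, which leaves primary CR1 against the fitted primary AS level, the median was -0.34. The difference was thus smaller in primary CR1 alone.

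Genes of antigen presentation were also lower. Class I molecules show peptides from inside the cell to cytotoxic T cells, and class II molecules are mostly made by professional antigen-presenting cells. Of 20 genes tested, 8 were called lower and 0 higher, where 6.97% of protein-coding genes were called lower. The median log2 fold change was -0.91. Nlrc5, the transactivator of class I genes, fell from 324, 416, 292 and 189 to 65.4, 72.9, 50 and 86.9 (-2.16, SE 0.31, adjusted p = 0.00676). H2-D1, a class I heavy chain, fell from 23370, 30240, 30400 and 19260 to 16930, 9306, 9045 and 10760 (-1.18, SE 0.25, adjusted p = 0.0216). H2-K1, H2-Q7 and H2-M3 of class I had log2 fold changes of -1.19, -1.20 and -1.08, and Psmb10, a subunit of the immunoproteasome, of -1.24. H2-K1, H2-D1 and H2-Q7 are close relatives, and how reads were shared among them was not tested. B2m, the class I light chain, had a log2 fold change of -0.80 that was not called (adjusted p = 0.0868). Cd74 and H2-Aa of class II had log2 fold changes of -1.79 and -1.97. Leaving out a single tumor left 1 to 9 members called, and metastatic tumors alone left 1, with medians between -0.67 and -1.09 when tumors were left out. The call count was 0 to 2 with tumors summed per mouse. With the term for the 3 libraries, which leaves primary CR1 against the fitted primary AS level, the median was -0.58. Of 30 interferon-induced genes, 2 were called lower and none higher, with a median of -0.46. That share was near the 6.97% of all protein-coding genes called lower. The 2 were Ddx58, an RNA sensor also named RIG-I, and Oasl2, which overlapped between the phenotypes.

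Markers of immune cells had medians below 0, of the same order as those of the antigen presentation genes, but few passed the test. Their summed levels overlapped between the phenotypes in all lists but that of B and plasma cells. The median log2 fold change was -0.48 over 14 macrophage, -0.97 over 5 neutrophil, -0.88 over 6 T and NK cell and -1.59 over 5 B and plasma cell markers tested. None of the macrophage, neutrophil, T and NK cell markers was called. The summed neutrophil markers were at 638 to 1834 in the AS and 967 to 1211 in the CR tumors. The T and NK cell markers were at 260.5 to 344.5 and 183.9 to 380. In metastatic tumors alone the medians of these 2 lists were -2.13 and -0.06. The summed macrophage markers were at 37210 to 51840 in the AS and 20430 to 45390 in the CR tumors, and the part of these markers in the antigen presentation values was not tested. Cd3e of T cells was at 0 to 9.46 in all tumors. Of the B and plasma cell markers, Igj and Igkc, the J chain and the kappa light chain of antibodies, were lower, and the summed list was at 356 to 4522 in the AS and 153 to 288 in the CR tumors. None of 12 endothelial or 15 fibroblast markers was called. Fewer cells of a type and less RNA per cell cannot be told apart in bulk tumors.

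**Figure D3:**
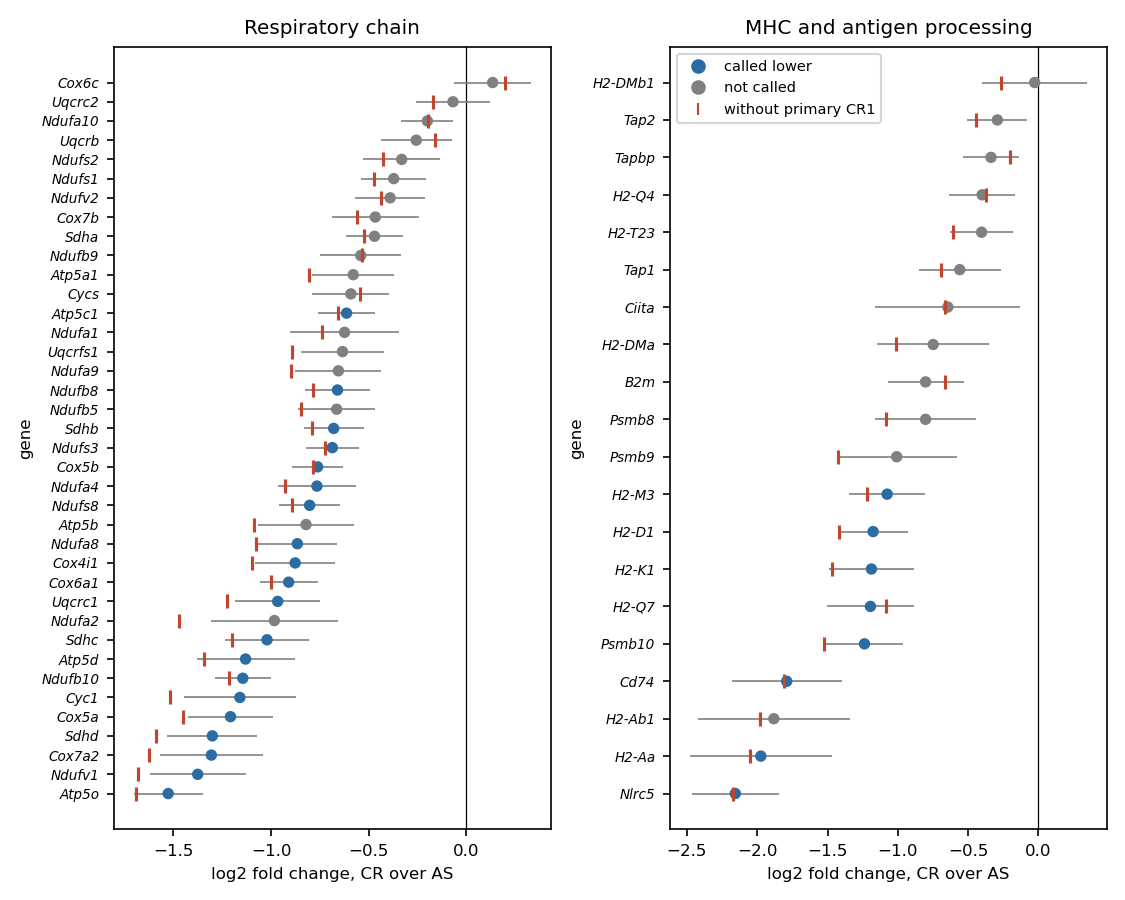
Log2 fold change of CR over AS (x axis) of each tested gene of the respiratory chain (left, 38 genes) and of MHC and antigen processing (right, 20 genes), with bars of 1 SE, called genes in blue and others in grey. Red ticks give the value without primary CR1, and 37 of the 38 respiratory chain genes lie below 0.

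Genes of ribosome biogenesis were higher in part. These proteins process and modify ribosomal RNA in the nucleolus, and many are known targets of Myc. Of 36 tested, 8 were called higher and 1 lower, beside 5.25 and 6.97% of all protein-coding genes, with a median log2 fold change of 0.23. Gar1 and Dkc1, protein parts of the H/ACA particle that makes pseudouridine in ribosomal RNA, rose by 1.45 (SE 0.25, adjusted p = 0.0117) and 1.09 (SE 0.23, adjusted p = 0.0220) on the log2 scale. Gar1 was at 605, 687, 519 and 659 in the AS tumors and 820, 2061, 1831 and 2218 in the CR tumors, with primary CR1 between the AS and the other CR tumors. Npm1, nucleophosmin, was at 50300 to 92500 against 96450 to 161200 (0.95, SE 0.23, adjusted p = 0.0342). Gnl3, nucleostemin, was at 3250, 4112, 3439 and 3910 against 6391, 7466, 5582 and 6139 (0.80, SE 0.14, adjusted p = 0.0112). Nop10, a further part of the H/ACA particle, was lower (-0.90, SE 0.17, adjusted p = 0.0154), so members of that particle moved in opposite directions. Leaving out metastatic AS1 or metastatic AS2 left 0 of the 36 called, as did each matching of tumors per mouse.

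Myc, as counted on the mouse gene, was at 253, 238, 239 and 240 in the AS tumors and 309, 408, 415 and 373 in the CR tumors. Every CR tumor was above every AS tumor, but the log2 fold change of 0.63 (SE 0.19) did not pass the test (adjusted p = 0.0604), and it did without primary CR1 (0.72, adjusted p = 0.0188). How reads of the human transgene were counted is not given in the sources used here. Of 13 genes of the Myc network tested, Mga, a repressor that pairs with Max, was the single gene called. Mga was at 404, 337, 332 and 307 in the AS tumors and 738, 434, 3210 and 3020 in the CR tumors (2.42, SE 0.60, adjusted p = 0.0351).

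Proliferation genes such as Top2a and Mki67 overlapped between the phenotypes, and their values depended on the setting. Top2a, topoisomerase II alpha, which untangles DNA in dividing cells, was at 2704, 8091, 1811 and 5844 in the AS tumors and 8184, 4861, 1520 and 8340 in the CR tumors (0.51, SE 0.49, adjusted p = 0.531). Its value without primary CR1 was -0.28 (adjusted p = 0.463). Mki67, the proliferation antigen Ki-67, was at 1498 to 6277 against 2040 to 8506 (0.42, SE 0.28, adjusted p = 0.364). Of 50 cell cycle genes, Ezh2 was called higher and Cdc45, a part of the replicative helicase, lower. Both shares were below the 5.25 and 6.97% of all protein-coding genes. The median of the list was 0.50, with 44 of 50 genes above 0, and without primary CR1 it was 0.0027, with 25 of 50 above 0. With the term for the 3 libraries, which leaves primary CR1 against the fitted primary AS level, the median was 1.53. Of the 50 genes 48 were then above 0, and Top2a was at 1.95. The summed level of the list was 63720 in primary CR1. It was 27630 and 20940 in the primary AS tumors and 59930 and 54670 in the metastatic AS tumors. With tumors summed per mouse 0 of the 50 were called in any matching. Ezh2, the methyltransferase of polycomb repressive complex 2, was at 581, 786, 438 and 844 in the AS tumors and 1121, 1440, 1232 and 1224 in the CR tumors (0.96, SE 0.18, adjusted p = 0.0146). The phenotypes did not overlap for Ezh2, and its log2 fold change was 0.93 without primary CR1. Of 27 epigenetic regulators, 2 were called higher and 2 lower, near the 5.25 and 6.97% of all protein-coding genes. Besides Ezh2, Aebp2, a cofactor of the same complex, was higher (1.01, SE 0.15, adjusted p = 0.00836). Rbbp7, the histone-binding part of that complex, and Cbx8, of the other polycomb complex, were lower, with -0.73 and -0.80. Suz12 and Eed, core parts of polycomb repressive complex 2, had values of 0.40 and 0.18 and were not called. Top2b, the topoisomerase II of nondividing cells, was at 9909, 11340, 10220 and 10070 against 15280, 14930, 15640 and 15640 (0.57, SE 0.13, adjusted p = 0.0313). Gapdh was at 1674 to 3123 in the AS and 2050 to 3964 in the CR tumors (0.29, SE 0.26, adjusted p = 0.499).

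Metabolic and stress genes moved in smaller groups, to be read beside the 5.25% of all protein-coding genes called higher and 6.97% called lower. Of 23 genes of cholesterol synthesis, 5 were lower and 1 higher, with a median of -0.44. Mvk, mevalonate kinase, fell from 953, 481, 603 and 684 to 575, 236, 300 and 184 (-1.14, SE 0.29, adjusted p = 0.0372), with overlap at primary CR1. Tm7sf2, Ebp and Hmgcs1, further enzymes of the pathway, had log2 fold changes of -1.20, -0.68 and -0.67, and Sc5d rose by 0.50. Without primary CR1 12 of the 23 were lower, and leaving out any other tumor left 0 or 1. With tumors summed per mouse 0 were called in any matching, and the median was -0.17 in primary tumors alone. For primary CR1 against the fitted primary AS level, which the term for the 3 libraries leaves, the direction turned. The median was then 0.25, with 14 of the 23 above 0. Of 16 enzymes of steroid synthesis and breakdown, Srd5a1, the reductase that makes dihydrotestosterone, rose from 88.0, 186, 116 and 154 to 383, 250, 209 and 320 (1.14, SE 0.30, adjusted p = 0.0391). Sult1e1, an estrogen sulfotransferase, was lower with overlap (-2.87, adjusted p = 0.0451). Of 31 genes of hypoxia and glycolysis, Pdk1, the kinase that shuts pyruvate out of the citric acid cycle, rose from 794, 762, 795 and 1417 to 3817, 4461, 2422 and 2931 (1.87, SE 0.25, adjusted p = 0.00560). Hif1a, the hypoxia factor subunit, rose by 0.88, while Hk2, hexokinase 2, and Pfkm, muscle phosphofructokinase, had log2 fold changes of -1.01 and -1.02. Of 30 glutathione and Nrf2 genes, 5 were lower and 2 higher. Mgst3 fell by 1.57, and Gsta2, with 1 count over the 4 CR libraries, shares sequence with Gsta1. Of 23 genes of endoplasmic reticulum stress, 4 were lower, with Sdf2l1 at 7101, 6652, 10550 and 3587 against 1556, 746, 2525 and 740 (-2.45, SE 0.28, adjusted p = 0.00358). Hspa5, the chaperone BiP, had a value of -0.58 that was not called (adjusted p = 0.188).

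Of 40 growth factor and receptor genes tested, 3 were higher and 2 lower, near the shares of all protein-coding genes, 5.25 and 6.97%. Wnt5a, a noncanonical Wnt ligand, rose from 1297, 1598, 1551 and 1623 to 4598, 4042, 4968 and 3783 (1.51, SE 0.15, adjusted p = 0.00198). Igfbp5, which binds insulin-like growth factors, rose from 7112, 2649, 2620 and 794 to 20900, 96890, 106600 and 76260 (4.68, SE 0.76, adjusted p = 0.00978), with primary CR1 nearest the AS tumors. Erbb2, the HER2 receptor, fell from 3935, 2563, 3161 and 2379 to 1908, 1376, 2161 and 1058 (-0.91, SE 0.15, adjusted p = 0.0104), and Fgf1, a fibroblast growth factor, fell by 1.36 on the log2 scale. Of 32 tumor suppressor and survival genes, Cdkn2c, an inhibitor of CDK4 and CDK6, and Mdm2, the ubiquitin ligase of p53, were lower, with -1.11 and -0.61. Trp53, the p53 gene, was at -0.18 and was not called. The 28 collagen and matrix genes had 1 higher and 2 lower members, 27 genes of the Atf4 amino acid response had 1 higher (Pycr1), and 19 fatty acid genes had 1 lower (Acsl5). In the lists of this paragraph the shares called were near or below those of all protein-coding genes, so the genes named are single changes.

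**Figure D4:**
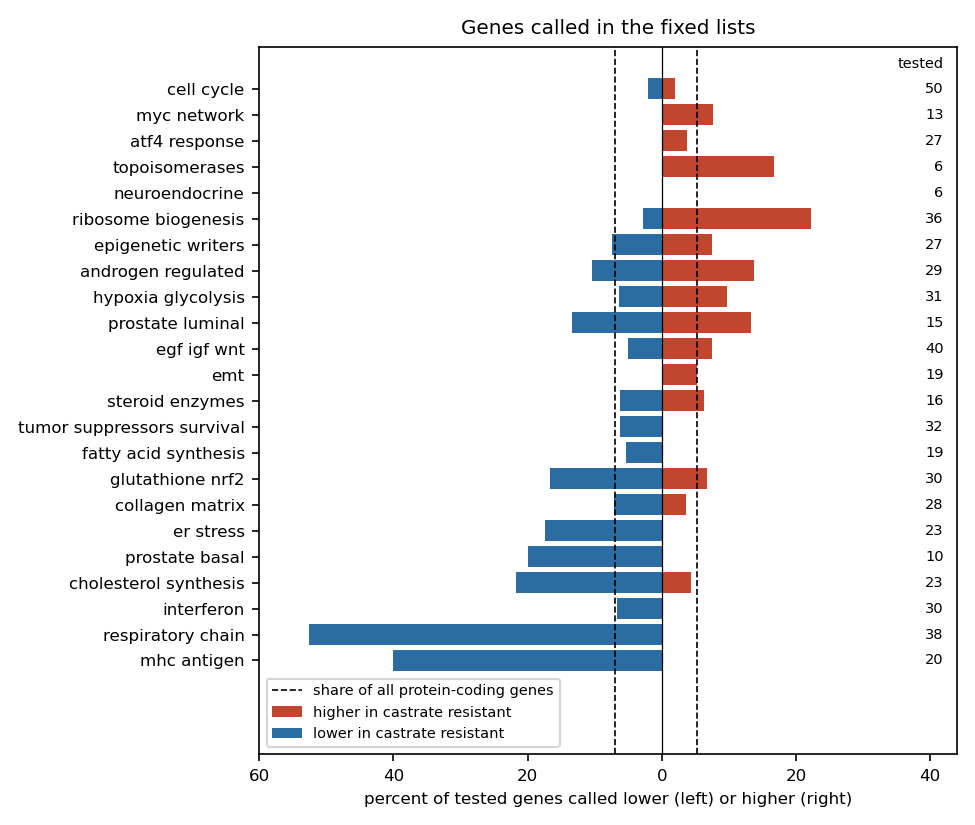
Percent of the tested genes of each of 23 gene lists that were called lower (blue, left) or higher (red, right) in the CR tumors (x axis), with lists (y axis) ordered by median log2 fold change and the number tested at the right. Dashed lines mark the shares over all protein-coding genes, 6.97% lower and 5.25% higher, and the respiratory chain (20 of 38) and antigen presentation (8 of 20) reach farthest to the left.

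The difference between phenotypes moved with transcript length and base composition. By quintiles of GC content of an annotated transcript of each gene, 8.71% of the genes with the lowest GC content were called higher and 2.85% lower. Of the quintile with the highest GC content, 3.37% were called higher and 9.70% lower. Their median log2 fold changes were 0.17 and -0.23. By length, the medians ran from -0.18 in the shortest to 0.03 in the longest quintile. The order of the length quintiles turned with the term for the 3 libraries, which leaves primary CR1 against the fitted primary AS level. It ran from 0.072 in the shortest to -0.25 in the longest. The medians of the lowest and highest GC quintiles were then 0.12 and -0.074. The part of these properties in any single gene was not tested. Against genes in the same quintiles of length and GC content, the respiratory chain, whose transcripts are short, had a median of -0.60, antigen presentation of -0.88, cholesterol synthesis of -0.39 and ribosome biogenesis of 0.31. Ribosomal protein genes, also short and added after the data were seen, had 11 of 83 called higher and 0 lower. Over all protein-coding genes 5.25% were called higher and 6.97% lower. The part of length in either group of genes was not tested.

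Noncoding RNA genes are described apart from the protein-coding genes. The share of ribosomal RNA genes followed the library split described above. So did that of snRNA, with 1.75% in primary CR1, 2.82 to 3.17% in the other CR tumors and 1.39 to 1.79% in the AS tumors. The share of snoRNA did not, with 2.37% in primary CR1, 1.64 to 2.52% in the other CR tumors and 1.20 to 2.12% in the AS tumors. Of 51 ribosomal RNA genes tested, 44 were called higher, and with primary CR1 left out 48 of 52 were. Primary CR1 was above all 4 AS tumors in 0 of those 48. The 5S copy Gm24312 was at 36.9, 13.5, 13.5 and 22.1 in the AS tumors, 18.0 in primary CR1 and 925, 673 and 785 in the other CR tumors. Of 54 spliceosomal snRNA genes, 32 were called higher, and primary CR1 was above the AS tumors in 8 of the 40 called without it. U5, counted on Rnu5g, was at 1031 to 1440 in the AS tumors, 1361 in primary CR1 and 32030 to 45890 in the other CR tumors. Of the small nucleolar RNAs, which guide modification of ribosomal RNA, 18 of 58 C/D box and 63 of 125 H/ACA box genes were called higher and none lower. For the H/ACA genes primary CR1 was above the AS tumors in 51 of the 81 genes called higher without it, and for the C/D genes in 7 of 29. These shares, 63.0 and 24.1%, were near those over all tested genes of the class, 62.5 and 25.8%. The term for the 3 libraries leaves primary CR1 against the fitted primary AS level. With it, the median of the ribosomal RNA genes turned to -0.93. The medians of the snRNA, C/D and H/ACA genes were then 0.014, 0.34 and 0.58.

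The called snoRNAs shown are both C/D genes and the first of the H/ACA genes with the smallest p-values of their class, to show the boxes that define each class. Capitals mark the C and D boxes of Snord118 (chr11:69073427-69073561, plus strand, GRCm38) and Snord45c (chr3:153912125-153912204, minus strand), and the ACA box of SNORA27, named Gm23202 in GENCODE M21 (chr5:146835144-146835272, plus strand).
Snord118: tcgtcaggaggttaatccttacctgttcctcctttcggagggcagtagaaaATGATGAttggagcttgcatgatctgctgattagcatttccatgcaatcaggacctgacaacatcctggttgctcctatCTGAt
Snord45c: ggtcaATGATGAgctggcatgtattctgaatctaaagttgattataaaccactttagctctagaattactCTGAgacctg
Gm23202: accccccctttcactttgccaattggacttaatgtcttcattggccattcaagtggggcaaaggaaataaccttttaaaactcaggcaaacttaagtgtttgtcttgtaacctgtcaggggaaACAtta
Snord118, also named U8, which takes part in processing of ribosomal RNA, was at 2222, 1833, 2608 and 1459 in the AS tumors, 3874 in primary CR1 and 17560, 30120 and 15220 in the other CR tumors (3.07, SE 0.53, adjusted p = 0.0120). Snord45c was at 16.3 to 34.1 in the AS tumors, 66.1 in primary CR1 and 137 to 245 in the others (2.76, SE 0.48). SNORA27 was at 36.9 to 81.9, 236 and 1005 to 2013 (4.09, SE 0.52, adjusted p = 0.00439). In each of the 3, primary CR1 lay between the AS tumors and the other CR tumors.

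Long noncoding RNAs and pseudogenes held fewer calls for their number. Of 1345 long noncoding RNA genes, 46 were higher and 43 lower. Gm5860 was at 1.5 to 6.98 in the AS and 103 to 161 in the CR tumors (4.95, SE 0.46, adjusted p = 0.00144), and its log2 fold change was 5.07 with the term for the 3 libraries. Gm15830, named Hopxos, the antisense transcript of Hopx, was at 278 to 458 against 49.7 to 141 (-1.98, SE 0.25). Of 1358 pseudogenes, 111 were higher and 24 lower. The share higher was above, and the share lower below, those of all protein-coding genes (5.25 and 6.97%). Whether reads of pseudogenes came from the parent genes was not tested. None of 18 microRNA genes tested was called.

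The differences were unevenly spread over chromosomes. Genes of chromosome 3 had a median log2 fold change of 0.26, with 92 higher and 20 lower of 671. Genes of chromosome 16 had a median of -0.28, with 13 higher and 76 lower of 423, and genes of chromosome 19 of -0.28, with 9 higher and 64 lower of 481. The median of chromosome 3 was 0.27 in primary and 0.27 in metastatic tumors, and that of chromosome 16 was -0.34 and -0.24. That of chromosome 19 was -0.13 in primary and -0.42 in metastatic tumors. Against genes in the same quintiles of length and GC content, the medians were 0.25, -0.29 and -0.21 for chromosomes 3, 16 and 19. All other chromosomes but Y, which had 5 genes tested, had medians between -0.14 and 0.17. Copy number was not measured.

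**Figure D5:**
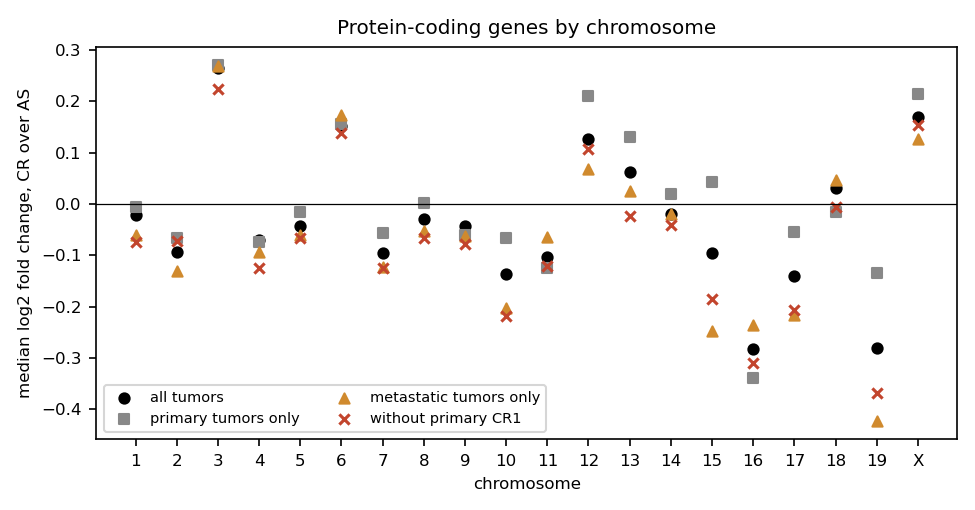
Median log2 fold change of CR over AS of the protein-coding genes of each chromosome (y axis; chromosomes on the x axis), over all tumors (black circles), primary tumors (grey squares), metastatic tumors (triangles) and without primary CR1 (crosses). Chromosomes 3 (0.26) and 16 (-0.28) stand away from 0 in each of the 4 sets.

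In 536 blocks of 25 neighbouring protein-coding genes, 3 had a median above 0.5 and 10 below -0.5. The lowest block lay on chromosome 19 (GRCm38, positions 6910977 to 8683587), with a median of -0.74 and 6 genes called lower, among them Cox8a, a subunit of complex IV, and Esrra, a nuclear receptor that drives mitochondrial genes. Esrra fell from 1593, 1088, 1432 and 1435 to 805, 347, 320 and 179 (-1.83, SE 0.35, adjusted p = 0.0161). A block on chromosome 17 (25834465 to 26699647) had a median of -0.68 and 8 genes called lower, among them Rgs11 (-1.30). The highest block, on chromosome 11 (95666957 to 96861203), had a median of 0.61 that was -0.03 in primary tumors alone. The next, on chromosome 2 (175061549 to 177509763), had a median of 0.59 and consists largely of related zinc finger genes such as Gm14440. How reads were placed among or dropped from these copies was not tested.

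Whether the phenotypes differed alike in primary and metastatic tumors was tested by an interaction term. No gene passed it in edgeR's quasi-likelihood test (lowest adjusted p = 0.953), 492 had an unadjusted p below 0.05, and DESeq2 called 2. The smallest p-values were those of Atp6v0d2, Gm9839, Gpr30, Chad and Cxcl5. Gpr30, the estrogen receptor GPER1, was higher in the CR tumors of both kinds, at 1683 and 1831 in the primary and 614 and 849 in the metastatic CR tumors against 157 to 316 in the AS tumors (2.25, SE 0.40, adjusted p = 0.0131). With 2 tumors in each cell of this design, the precision of the interaction is low.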

How the data were processed

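RNA of 8 tumors was sequenced as stranded paired reads after depletion of ribosomal RNA. The authors mapped reads to GRCm38 (mm10) with Bowtie, keeping reads of a single location, and the submitters' processing notes name TopHat2 2.0 and CASAVA 1.8.2. The deposited values are whole-number counts of reads per gene, not normalized, for 38115 genes in each file. The counting tool and the annotation release are not given in the sources used here. Gene classes and positions came from GENCODE M21 (36343 genes found).

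Phenotypes were compared with edgeR 4.0.16 (R 4.3.3), using trimmed mean of M values (TMM) factors, filterByExpr by phenotype and the quasi-likelihood test with tumor type as a covariate, with Benjamini-Hochberg adjustment at 0.05. DESeq2 1.42.0 and limma 3.58.1 were alternatives. On simulated counts for this comparison (16875 genes), 67 genes were changed 2-fold, 67 4-fold and 66 8-fold. The test recovered 13.4, 74.6 and 86.4% of them, and it called 2 unchanged genes. Far fewer genes were changed there than were called in the data, which makes the adjusted threshold stricter in the simulation. Genes were named by rule: those with the largest log2 fold change among called genes with at least 100 normalized counts and no overlap, the called members of each list with the smallest p, and Myc, Top2a, Ezh2, Mki67 and Gapdh. Other list members and markers named in the text were chosen after their values were seen. The lists and the question were set with earlier results of these data known. Nothing in the labels says that the tumors of a group came from separate mice, so p-values measure the spread between these samples. Some genes are not reported here. Totals of 20905806 to 91886163 counts set the precision.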

Additional observations from a re-analysis of the deposited data

Results flagged for a closer look

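In 22 of 288 groups of 4 tumors examined, 1 tumor lay far from the other 3 by Dixon's criterion, where chance gives about 1 in 20. Of these, 10 were primary CR1. Primary CR1 was lowest of the CR tumors for Lars2 (77390 normalized counts, and 0.140% of counts), Gm2830 (499.6), 5S_rRNA (Gm24312) (18.0), 5S_rRNA (n-R5s130) (17.3) and U5 (Rnu5g) (1361). It was highest for Krt19 (7843), Gstm5 (1301), small RNA (23.7% of counts) and signal recognition particle RNA (12.6% of counts). Primary AS1 was highest of the AS tumors for Camkk2 (1227) and the share of mt-Rnr1 (2.08% of counts), and lowest for Krt8 (2159). Primary AS2 was lowest for Sema3c (15.2) and highest for Gm14440 (79.5). Metastatic AS2 was highest for Pdk1 (1417) and for the TMM factor (1.11). Primary CR2 was highest of the CR tumors for Psca (9330) and Cxcl13 (2563). Metastatic CR2 was highest for Igf2bp1 (949) and for the number of genes with a count (27438). Metastatic CR1 was highest for Gsta2 (1.74), which rests on a single read. The causes were not tested.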

How the results depend on the processing

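The number of genes called depended on the setting more than their direction did. Against 2081 calls over all genes (1669 protein-coding, 412 noncoding), DESeq2 gave 3544 (2820 and 724), primary tumors alone 4 (4 and 0), metastatic tumors alone 974 (687 protein-coding), and the term for the 3 libraries with a high Lars2 share, chosen after seeing the data, 514 (460 and 54). The calls with the term for the 3 libraries set primary CR1 alone against the fitted primary AS level. With a single CR tumor behind them, they do not count differences between the phenotypes. They cannot show which of the 2081 calls hold. Of the 2081, an adjusted p under 0.01 left 315 (291 and 24), and a change of at least 2-fold 1217 (868 protein-coding). For noncoding genes limma-voom gave 270 and no low-count filter 699. Leaving out 1 tumor gave 481 to 4133 calls over all genes, 432 to 3197 protein-coding and 47 to 936 noncoding. The highest count (4133) came without primary CR1, while it was 881, 481, 695 and 519 without primary AS1, metastatic AS1, primary AS2 and metastatic AS2, and 745, 1049 and 1116 without metastatic CR1, primary CR2 and metastatic CR2. No paired analysis was possible because the labels do not say which metastasis belongs to which primary tumor. With tumors summed per mouse in the 4 possible matchings there were 247, 164, 335 and 389 calls, of which 137, 156, 194 and 360 were protein-coding and 110, 8, 141 and 29 noncoding. The interaction had 0 calls, 2 with DESeq2 and 217 without the low-count filter. With the term for the 3 libraries, the log2 fold changes of 5S_rRNA (Gm24312), 5S_rRNA (n-R5s130) and U5 (Rnu5g) turned to -0.29, -0.26 and -0.0037. The median of the chromosome 11 block turned to -0.034 in primary tumors alone. Of 119 genes chosen by the naming rule that were called, 119 kept their call with DESeq2, 107 with limma-voom and 116 without primary CR1. Scaling from protein-coding genes moved the share of higher genes among protein-coding calls from 43.0 to 50.6%, and the median of all protein-coding genes stayed within 0.1 of its value. The cause of these changes was not tested. Most 2-fold changes in the simulated counts were not recovered, while some smaller changes were called in the data. With 4 tumors a group, a gene that was not called is not shown to be alike in both phenotypes.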

Other observations

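Other gene groups held single changes. Cxcl13, the chemokine that draws B cells, was at 105, 229, 150 and 77.3 in the AS tumors and at 814, 789, 2563 and 698 in the CR tumors, without overlap. Trf, transferrin, was at 2940 to 3941 in the AS and 4941 to 19630 in the CR tumors (2.02, SE 0.40). Seminal vesicle markers were too low to test, with a summed level of 1.44 to 37.3 over all tumors.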
